A study of Mus musculus with 26 samples.

Results

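Endothelial cells line the vessels that feed a tumor, and the 10 genes described here, Pecam1, Cdh5, Kdr, Flt1, Tek, Tie1, Vwf, Eng, Plvap and Emcn, are commonly used to mark them. They were taken by gene symbol from the deposited expression table, with the probe set of highest mean where a gene had several, and each of the 10 had 1 probe set among 19505 genes. The values came from 26 subcutaneous Panc02 tumors, grown from a mouse pancreatic ductal adenocarcinoma cell line in male C57BL/6 mice that were obtained at 6 to 8 weeks of age. All mice ate the AIN-93G diet. The anti-PD1 + HMB group (n = 7) received both treatments, the HMB group (n = 7) received β-hydroxy-β-methylbutyrate, a leucine metabolite, in the diet from 1 week before the injection, the anti-PD1 group (n = 6) received 200 µg of an antibody against the inhibitory T cell receptor PD1 every 3 days once tumors had formed, and the control group (n = 6) received neither. By the study's methods, mice without anti-PD1 were injected with an isotype control antibody instead, an agent that the labels do not name. The question of the design was whether HMB changes the tumor response to anti-PD1. Group sizes here follow the sample titles, from which the submitters' note on the design departs.

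RNA of homogenized tumors was measured with 1 Clariom S array per tumor, so that the vessels of the host and every other cell of the tissue contributed to a value. In such bulk samples fewer endothelial cells and less RNA per endothelial cell cannot be told apart. Values are on the deposited log scale, taken as log2. The array medians lay between 6.97 and 7.11, and the 95th percentile of the negative-control probe sets, used here as a background level, lay between 10.9 and 11.3. Between 3772 and 4489 of the 19505 genes lay above it on an array. Precision is limited by how many arrays there are per group.

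Endothelial cells hold to each other through adherens junctions, sense vascular endothelial growth factor (VEGF) through tyrosine kinase receptors, and are kept quiescent by angiopoietins acting on the Tie receptors. Bone morphogenetic protein and Notch signals set whether a cell sprouts or stays in the vessel wall. In tumors these vessels also carry the adhesion molecules by which T cells leave the blood.

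No endothelial gene differed between the treatments beyond the spread of the tumors once all genes were adjusted for. The smallest p-values belonged to Emcn, with a mean log2 difference of -0.52 ± 0.19 (SE) in anti-PD1-treated relative to untreated tumors, and to Plvap, which averaged 9.90 ± 0.84 with anti-PD1 + HMB, against 9.04 ± 0.78 with HMB alone and 9.02 ± 0.69 with anti-PD1 alone (SD, n = 7, 7 and 6). With limma, 0 of the 10 genes and 0% of all genes passed an adjusted p of 0.05 in any of the 8 comparisons or in the test of any difference among the 4 groups. The endothelial genes spread widely within groups. The SD within groups had a median of 0.64 over the 10 genes and of 0.38 over all genes, and a single anti-PD1 + HMB tumor and a single control tumor held the highest value of 9 of the 10 genes.

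**Figure D1:**
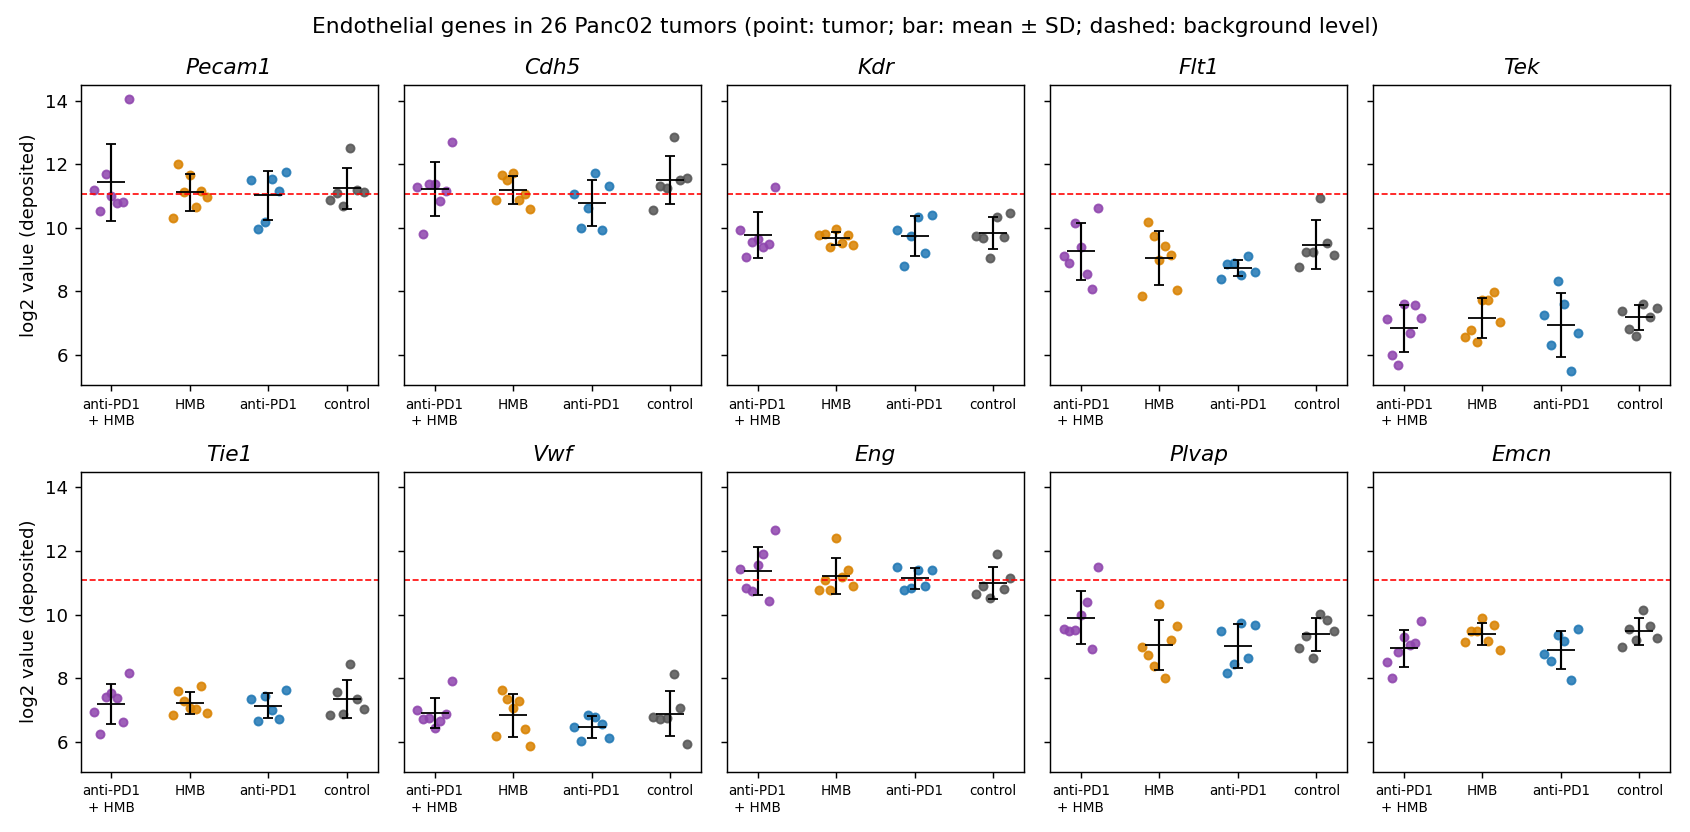
Deposited log2 values of the 10 endothelial genes by treatment group, with 1 point per tumor, a bar for the mean ± SD and a dashed line at the mean background level of 11.07. The groups overlap in every panel, and the point farthest above the others is Pecam1 at 14.06 in anti-PD1 + HMB tumor 7.

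Pecam1 encodes CD31, an adhesion molecule of endothelial junctions that platelets and leukocytes also carry. Its lowest, median and highest values were 10.53, 10.99 and 14.06 with anti-PD1 + HMB, 10.29, 11.12 and 11.99 with HMB, 9.97, 11.33 and 11.75 with anti-PD1, and 10.69, 11.11 and 12.51 in control tumors. The medians of the 4 groups thus lay closer together than the tumors of any group. Cdh5 encodes VE-cadherin, the adherens junction protein of endothelium. Its values were 9.81, 11.29 and 12.68 with anti-PD1 + HMB, 10.59, 11.08 and 11.72 with HMB, 9.93, 10.84 and 11.72 with anti-PD1, and 10.54, 11.42 and 12.87 in control tumors. Of the Cdh5 comparisons, the one with the smallest p was anti-PD1 relative to control, with a log2 difference of -0.73 ± 0.39 (SE, adjusted p = 0.844 by limma), and of -0.46 without control tumor 4. Pecam1 and Cdh5 each lay above the background level in 15 of 26 tumors.

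Kdr and Flt1 encode the receptors for VEGF, of which Kdr is the main signaling receptor and Flt1 binds VEGF tightly and limits how much reaches Kdr. Kdr values ran from 9.09 to 11.29 with anti-PD1 + HMB, from 9.40 to 9.97 with HMB, from 8.79 to 10.40 with anti-PD1 and from 9.05 to 10.46 in control tumors. The Kdr group means lay between 9.67 and 9.83, and its log2 differences were between -0.16 and 0.10 for the 5 comparisons of single groups. Flt1 values had a lowest, median and highest of 8.09, 9.10 and 10.62 with anti-PD1 + HMB, 7.84, 9.14 and 10.19 with HMB, 8.40, 8.74 and 9.10 with anti-PD1, and 8.76, 9.24 and 10.93 in control tumors. The anti-PD1 tumors were the most uniform for Flt1, with an SD of 0.26 against 0.76 in control tumors. Flt1 differed by -0.74 ± 0.41 (SE) in anti-PD1 relative to control tumors (adjusted p = 0.861 by limma), and by -0.45 without control tumor 4.

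Tek and Tie1 encode the Tie receptors, where Tek binds the angiopoietins and Tie1 has no angiopoietin of its own and modulates Tek. Tek values ran from 5.69 to 7.61 with anti-PD1 + HMB, from 6.41 to 7.99 with HMB, from 5.48 to 8.32 with anti-PD1 and from 6.60 to 7.598 in control tumors. Tie1 values ran from 6.24 to 8.16 with anti-PD1 + HMB, from 6.84 to 7.75 with HMB, from 6.65 to 7.63 with anti-PD1 and from 6.85 to 8.45 in control tumors. Neither receptor exceeded the background level in any tumor, and all of their log2 differences were between -0.35 and 0.19.

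Eng encodes endoglin, a co-receptor for bone morphogenetic proteins that is abundant on dividing endothelium and present on some stromal cells and macrophages. Its lowest, median and highest values were 10.43, 11.43 and 12.64 with anti-PD1 + HMB, 10.78, 11.10 and 12.40 with HMB, 10.77, 11.14 and 11.51 with anti-PD1, and 10.52, 10.85 and 11.91 in control tumors. Eng had a mean above control in each treated group, by 0.37 ± 0.31, 0.22 ± 0.31 and 0.14 ± 0.32 (SE) with anti-PD1 + HMB, HMB and anti-PD1, and the adjusted p-values by limma were 0.758, 0.899 and 0.97. No other endothelial gene did so over all tumors, but without control tumor 4 Pecam1, with 0.44, 0.13 and 0.026, and Tie1, with 0.051, 0.083 and 0.000287, did so too, and Eng then had 0.56, 0.41 and 0.33. Without anti-PD1 + HMB tumor 7 the Eng difference of anti-PD1 + HMB relative to control was 0.16. Vwf encodes von Willebrand factor, which endothelial cells and megakaryocytes store and release for platelet adhesion. Vwf values ran from 6.44 to 7.91 with anti-PD1 + HMB, from 5.87 to 7.63 with HMB, from 6.03 to 6.85 with anti-PD1 and from 5.92 to 8.13 in control tumors, always under the background level. Of 6 platelet and megakaryocyte markers measured, 4 lay above the background level in no tumor, Pf4 in 9 tumors and Itgb3 in 15.

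Plvap encodes the protein of the diaphragms that span the openings of permeable capillaries, and it is abundant in tumor vessels. Its lowest, median and highest values were 8.91, 9.56 and 11.48 with anti-PD1 + HMB, 8.004, 8.97 and 10.33 with HMB, 8.16, 9.06 and 9.74 with anti-PD1, and 8.65, 9.40 and 10.02 in control tumors. Of the 7 anti-PD1 + HMB tumors, 6 lay above the mean of the HMB group and 6 above the mean of the anti-PD1 group, although the groups overlapped. The log2 difference of anti-PD1 + HMB relative to HMB was 0.87 ± 0.37 (SE, adjusted p = 0.481 by limma). Relative to anti-PD1 it was 0.88 ± 0.38 (SE, adjusted p = 0.999 by limma). The interaction of HMB and anti-PD1, which is the effect of HMB under anti-PD1 minus its effect without it, was 1.22 ± 0.54 for Plvap (SE, adjusted p = 0.884 by limma). Without anti-PD1 + HMB tumor 7 these 3 values were 0.60, 0.62 and 0.95, with unadjusted limma p-values of 0.0856, 0.0902 and 0.0614.

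Emcn encodes endomucin, a sialomucin of capillary and venous endothelium that hinders leukocyte adhesion. Its lowest, median and highest values were 7.999, 9.05 and 9.78 with anti-PD1 + HMB, 8.88, 9.47 and 9.90 with HMB, 7.96, 8.95 and 9.55 with anti-PD1, and 8.99, 9.41 and 10.16 in control tumors. In the anti-PD1 group 3 of 6 tumors, and in the anti-PD1 + HMB group 3 of 7, lay below the lowest control tumor. The difference of anti-PD1-treated relative to untreated tumors, the mean of its effects with and without HMB, corresponded to a fold of 1.43 downward (adjusted p = 0.351 by limma), and its 95% confidence interval ran from -0.90 to -0.14 on the log2 scale. The effect was -0.58 ± 0.27 without HMB and -0.46 ± 0.25 with HMB (SE), and the interaction was 0.13 ± 0.37. Emcn stayed under the background level in all 26 tumors. Leaving out each tumor in turn gave a value between -0.59 and -0.43, with an unadjusted limma p under 0.05 in 26 of 26 fits. Without anti-PD1 + HMB tumor 7 the value was -0.59. These fits share nearly all of their tumors and are not independent checks. The share of all genes that stayed under 0.05 in every fit was not computed.

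The RefSeq promoter table (GRCm38.p6, 250 bases before to 50 after the start) held 6 of the 10 genes, namely Eng, Emcn, Tek, Tie1, Kdr and Flt1. ETS family transcription factors act at many endothelial promoters through sites with a GGAA core. The longer string GGAAG was searched on both strands, where the other strand reads CTTCC. Cores followed by another base were not counted. Matches are in capitals. The promoters of Emcn, the gene with the smallest p, and of the paired receptors Tie1 and Tek are shown because they span the range of matches found.
Emcn, chr3:137340828-137341127, plus strand: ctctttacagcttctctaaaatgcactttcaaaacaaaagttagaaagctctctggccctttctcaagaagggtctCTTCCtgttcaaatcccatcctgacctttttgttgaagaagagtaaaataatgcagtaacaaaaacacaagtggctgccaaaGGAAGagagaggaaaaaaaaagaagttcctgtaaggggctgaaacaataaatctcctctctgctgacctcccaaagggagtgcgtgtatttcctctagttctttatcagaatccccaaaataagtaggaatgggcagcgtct
Tie1, chr4:118489800-118490099, minus strand: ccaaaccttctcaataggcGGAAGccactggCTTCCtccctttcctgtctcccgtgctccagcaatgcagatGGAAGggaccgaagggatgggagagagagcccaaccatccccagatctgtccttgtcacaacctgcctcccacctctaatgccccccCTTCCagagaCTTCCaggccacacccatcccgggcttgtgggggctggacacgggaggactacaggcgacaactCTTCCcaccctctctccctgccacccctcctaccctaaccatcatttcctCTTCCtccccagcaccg
Tek, chr4:94739039-94739338, plus strand: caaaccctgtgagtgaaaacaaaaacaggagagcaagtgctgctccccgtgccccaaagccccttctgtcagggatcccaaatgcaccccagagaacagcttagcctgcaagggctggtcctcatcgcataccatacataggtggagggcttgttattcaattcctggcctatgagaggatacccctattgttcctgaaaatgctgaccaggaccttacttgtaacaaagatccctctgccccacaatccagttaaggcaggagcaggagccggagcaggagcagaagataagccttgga
Emcn held 2 matches, Tie1 held 7 and Tek held 0, while Eng held 2, Flt1 held 3 and Kdr held 1. At least 1 match was present in 71.4% of 32851 promoters of this length and 2 or more in 37.9%. A match is a string of letters and was not tested as a binding site. The count for Tek does not mean that the shorter core is absent. Its printed promoter holds that core on the other strand, followed by another base.

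The comparisons of single groups asked how each treatment and their combination stood to control and how the combination stood to each treatment alone. For anti-PD1 + HMB relative to control, 6 of 10 endothelial genes had a lower mean, against 53.1% of all genes, and the median log2 difference was -0.11. None reached an unadjusted p of 0.05, which 8.13% of all genes did, and Emcn was nearest with -0.53 ± 0.26 (SE, adjusted p = 0.624 by limma). For HMB relative to control, 9 of 10 had a lower mean, against 52.5% of all genes, with a median of -0.13. None reached an unadjusted p of 0.05, against 6.93% of all genes. For anti-PD1 relative to control, 9 of 10 also had a lower mean, against 50.8% of all genes, with a median of -0.29, and Eng was the exception. Emcn alone reached an unadjusted p of 0.05, where 6% of all genes did (adjusted p = 0.831 by limma). These 3 comparisons share the control tumors, of which tumor 4 was the highest in 9 of the 10 genes, and without it 3, 4 and 6 of the 10 means were lower for anti-PD1 + HMB, HMB and anti-PD1.

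For anti-PD1 + HMB relative to anti-PD1, 9 of 10 endothelial genes had a higher mean, with a median log2 difference of 0.32, and 52% of all genes had a lower one. Plvap reached an unadjusted p of 0.05, as did 4.18% of all genes. For anti-PD1 + HMB relative to HMB, 7 of 10 had a higher mean, with a median of 0.091, and 51.6% of all genes had a lower one. Plvap again reached an unadjusted p of 0.05, as did 8.8% of all genes. Both counts rested on anti-PD1 + HMB tumor 7, without which 5 of 10 means were higher relative to anti-PD1, with a median of -0.0062, and 1 of 10 relative to HMB, with a median of -0.14. In none of the 5 comparisons of single groups were the tumors of an endothelial gene fully separated, against 0.2% of all genes for anti-PD1 + HMB and 0.179% for HMB relative to control, 0.41% for anti-PD1 relative to control, 0.0513% for anti-PD1 + HMB relative to anti-PD1 and 0.0718% relative to HMB.

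Averaged over the other treatment, anti-PD1-treated tumors had a lower mean than untreated tumors in 6 of 10 endothelial genes, against 52.1% of all genes, and Emcn was the gene with an unadjusted p under 0.05, as 8.98% of all genes had. HMB-fed tumors had a lower mean than other tumors in 4 of 10, against 53.3% of all genes, and none had an unadjusted p under 0.05, against 5.03% of all genes. That count was 7 of 10 without anti-PD1 + HMB tumor 7, with a median of -0.070, and 2 of 10 without control tumor 4, with a median of 0.20. The interaction was above 0 in 9 of 10 endothelial genes, with a median of 0.35, and below 0 in 49.3% of all genes. It was above 0 in 6 of 10 without anti-PD1 + HMB tumor 7, with a median of 0.061, and likewise in 6 of 10 without control tumor 4, with a median of 0.17. Plvap had an unadjusted interaction p under 0.05, as did 5.57% of all genes. The interaction of the other genes was between -0.10 for Tek and 0.95 for Flt1. In the test of any difference among the 4 groups, 7.7% of all genes had an unadjusted p under 0.05. The share of variance between groups had a median of 7.97% over the endothelial genes and of 11.5% over all genes, with 24.9% for Emcn and 23.1% for Plvap.

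**Figure D2:**
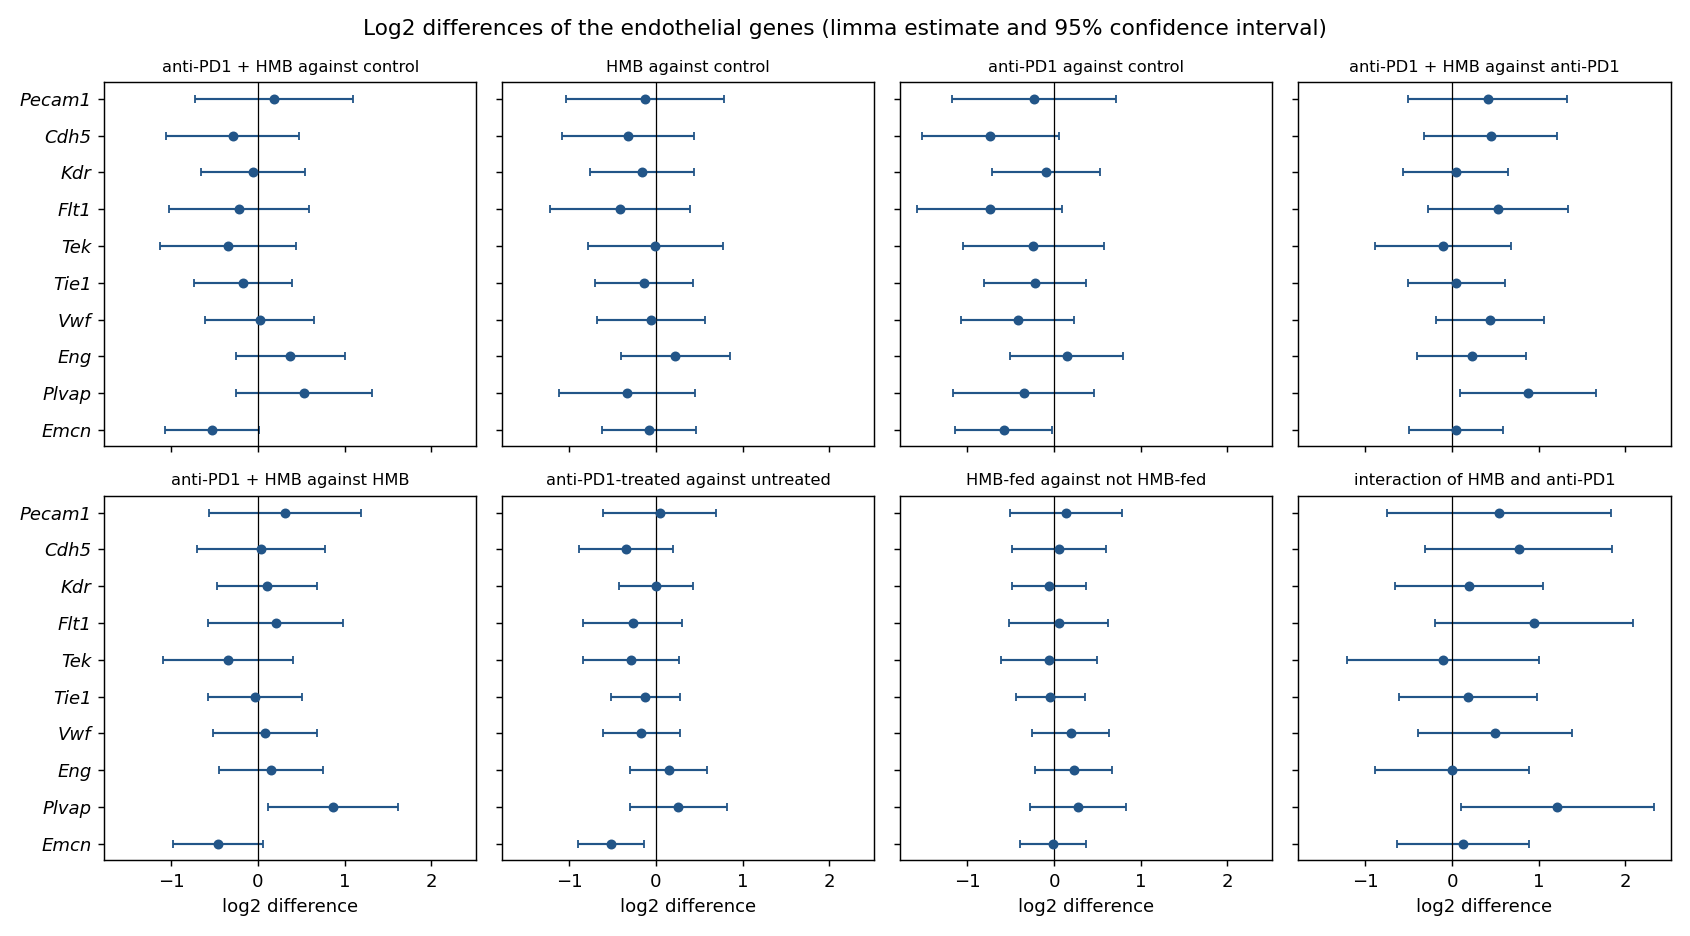
Log2 differences of the 10 endothelial genes in 8 comparisons, with the limma estimate as a point and its 95% confidence interval as a line. The interval leaves out 0 for Plvap in 3 panels and for Emcn in 2, before adjustment over all genes.

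The endothelial genes varied together from tumor to tumor. Each gene was centred on its mean over the 26 tumors, and the 10 were averaged to a score per tumor, which is a description without a test. The score was 1.38 in anti-PD1 + HMB tumor 7, 1.09 in control tumor 4 and 0.48 in HMB tumor 4, and lowest with -0.79 in anti-PD1 tumor 2. Both of the first tumors lay above the mean in 10 of 10 genes. Anti-PD1 + HMB tumor 7 held the highest of all values for 4 genes and control tumor 4 for 5, and Tek was the exception with its highest value in anti-PD1 tumor 3. Score medians were -0.030 with anti-PD1 + HMB, -0.054 with HMB, -0.080 with anti-PD1 and 0.042 in control tumors, so the group medians differed by far less than single tumors did.

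**Figure D3:**
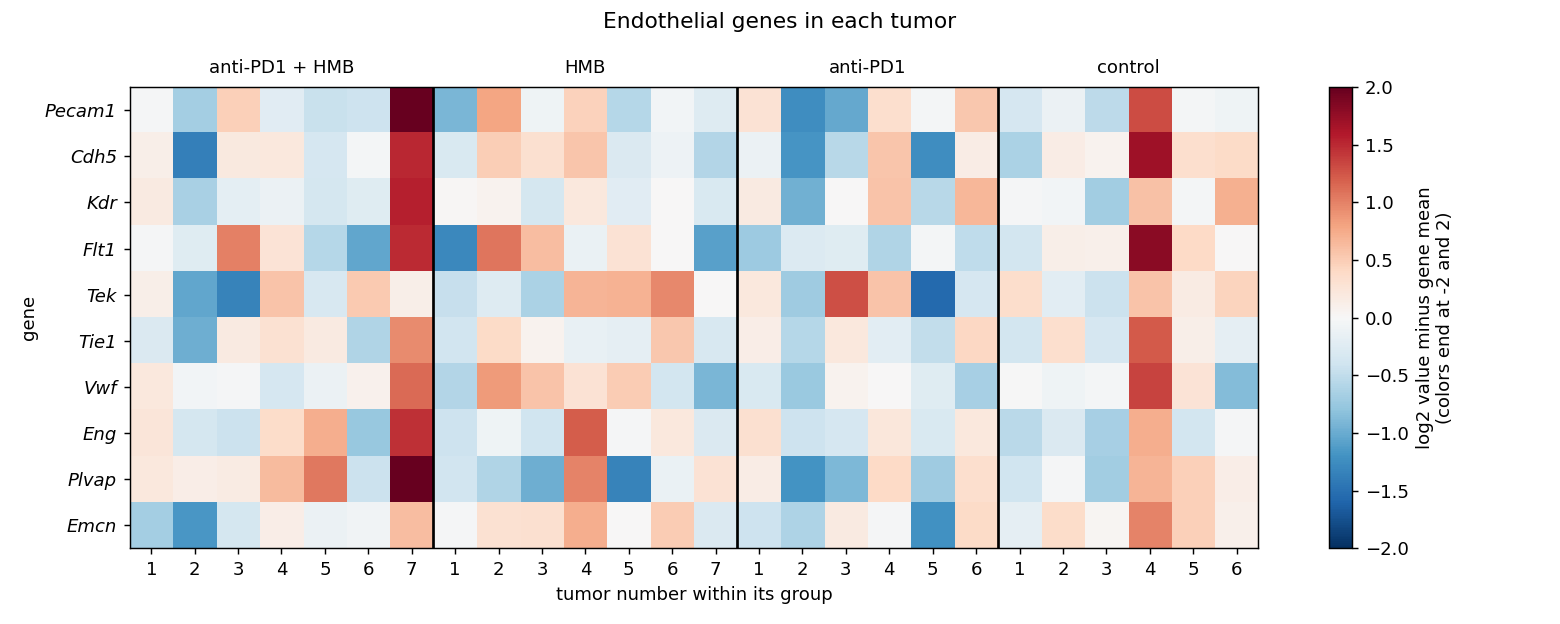
Log2 value minus the mean of the gene over 26 tumors, with genes in rows and tumors in columns by group. Anti-PD1 + HMB tumor 7 and control tumor 4 lie above the gene mean in all 10 rows, and anti-PD1 tumors 2 and 5 lie below it in 10 of 10 rows each.

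Across the 26 tumors, 44 of the 45 pairs of endothelial genes had a Pearson's r above 0, with a median of 0.56 and a range from -0.046 to 0.79. All genes of a tumor were read on the same array and from the same mixed tissue, so r is given as a description. Without the highest pair of tumors, 38 of 45 pairs were above 0 and the median was 0.35. Cdh5 followed the mean of the other 9 genes most closely, with r = 0.89, and 0.81 without those tumors. Pecam1 had 0.82, Tie1 0.81, Kdr 0.78, Eng 0.72 and Emcn 0.70. Tek had 0.30, and 0.33 without those tumors. Flt1 and Vwf depended most on those tumors, with r = 0.57 and 0.60 over all tumors and 0.20 and 0.25 without them. The VEGF receptors thus did not follow each other closely, with r = 0.33 between Kdr and Flt1, whereas Flt1 and Vwf had 0.75, Eng and Plvap 0.77, and Cdh5 and Emcn 0.79.

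**Figure D4:**
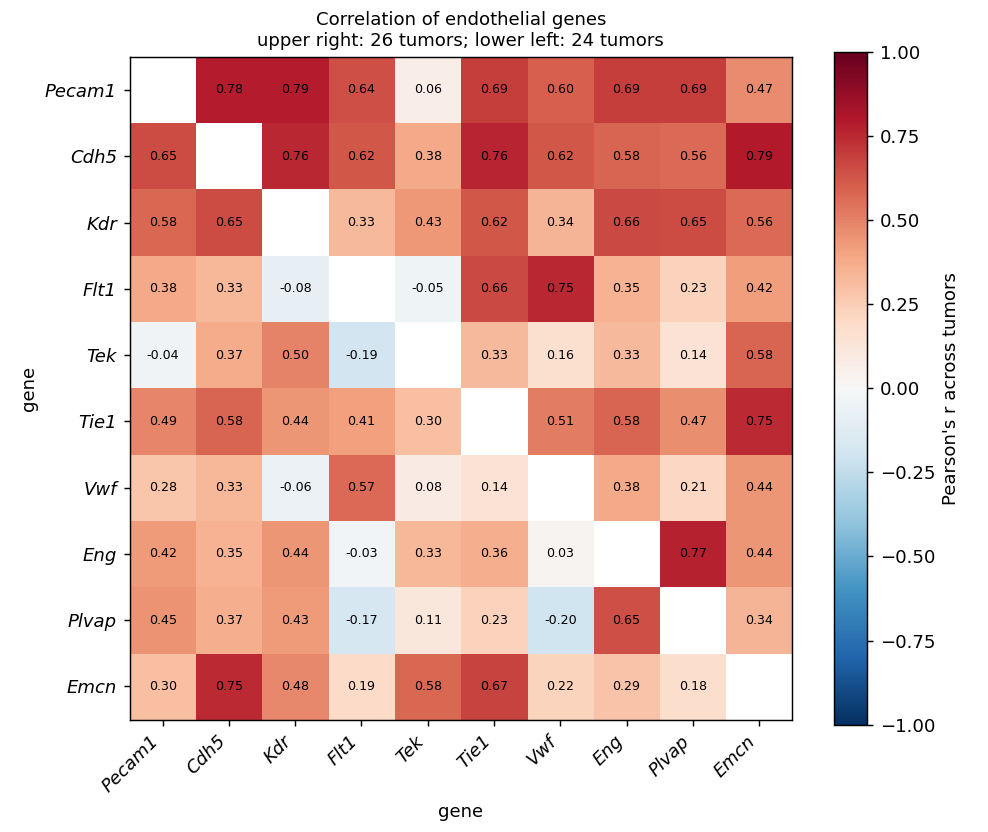
Pearson's r between endothelial genes, over 26 tumors in the upper right and over the 24 tumors left without anti-PD1 + HMB tumor 7 and control tumor 4 in the lower left. Cdh5 keeps positive values with every gene in both triangles, while in the lower left Flt1 and Vwf have values between -0.20 and 0.03 with Kdr, Eng and Plvap.

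Genes outside the list that were most like the score were Gpr4, a proton-sensing receptor (r = 0.86 over 26 tumors), Ramp2, a subunit of the adrenomedullin receptor (0.85), and Jam2, a junctional adhesion molecule (0.83). They were followed by Btnl9 (0.82), S1pr1, the receptor for sphingosine-1-phosphate (0.82), Mmrn2 (0.82), Adgrl4 (0.81), Cyyr1 (0.81), Icam2, an adhesion molecule for leukocytes (0.81), and Cldn5, the claudin of endothelial tight junctions (0.80). On deviations from the group means, 8 of these 10 were again among the first 10, joined by Ptprm (0.83) and Prex2 (0.82). Without the highest pair of tumors, r lay between 0.51 for Cldn5 and 0.80 for Jam2. A score over 30 other endothelial markers had r = 0.90 with the score of the 10, and 0.80 without those tumors. Of the 10 most alike, 7 lay above the background level in no tumor, S1pr1 and Cyyr1 did so in 1 tumor each and Adgrl4 in 10. Of the 30 other markers, 23 lay above the background level in no tumor.

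**Figure D5:**
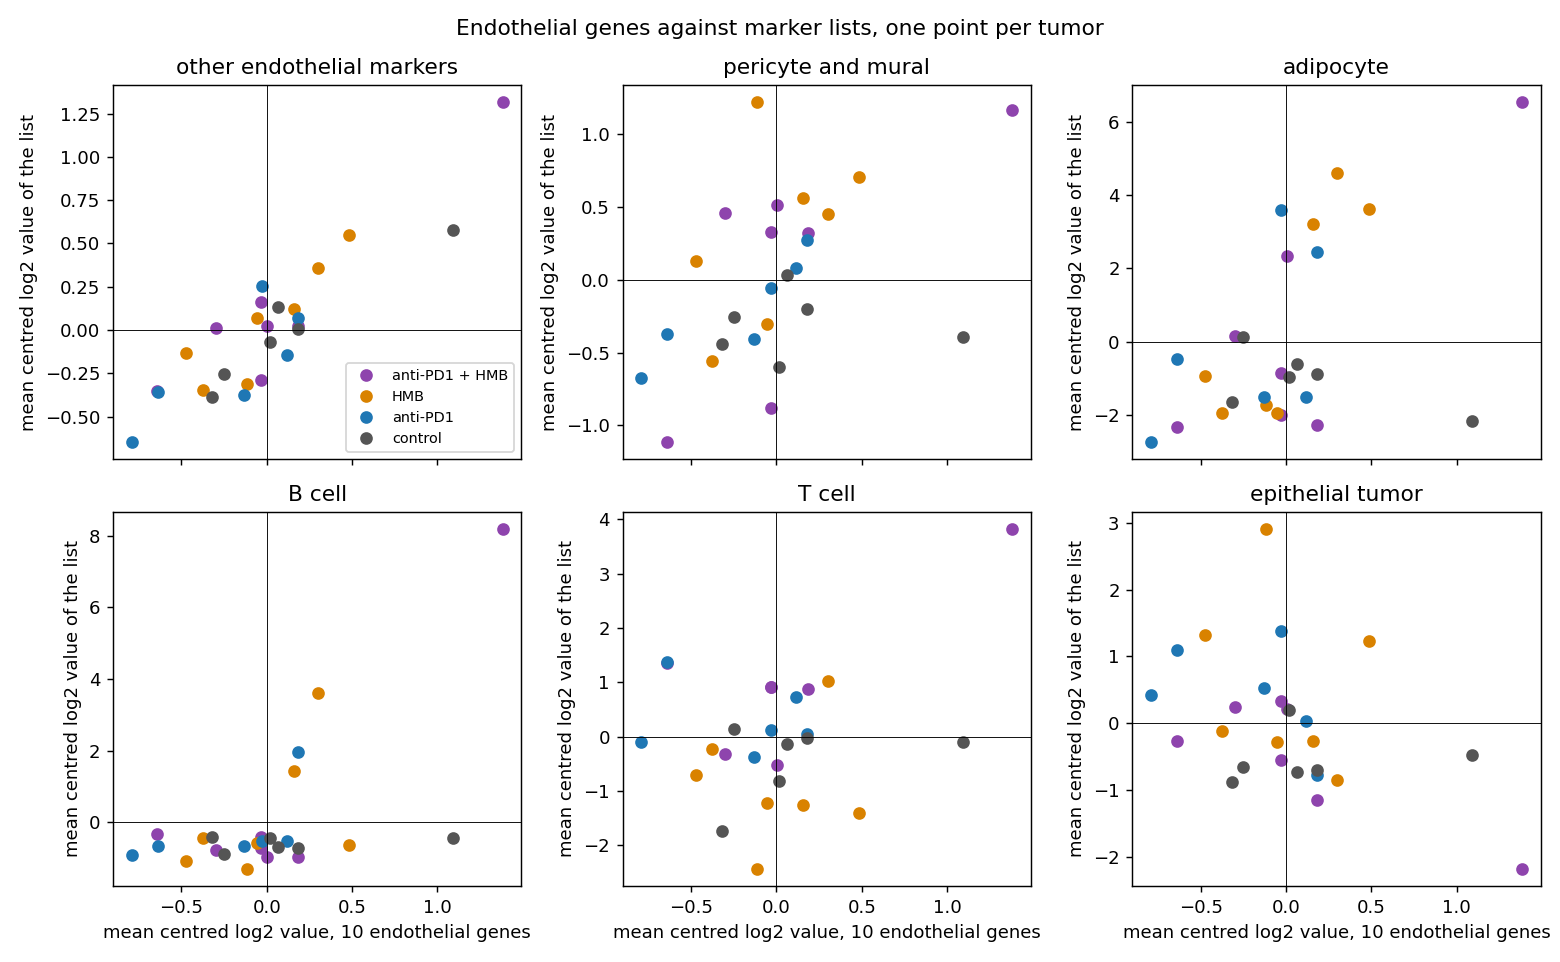
Mean centred log2 value of the 10 endothelial genes on the horizontal axis and of a marker list on the vertical axis, with 1 point per tumor colored by group. The other endothelial markers lie along a line, while the adipocyte, B cell and T cell scores of anti-PD1 + HMB tumor 7 are 6.55, 8.20 and 3.83, the highest of all tumors.

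Both tumors with high endothelial scores also stood apart in markers of other cell types. Anti-PD1 + HMB tumor 7 ranked 1 of 26 for adipocyte, T cell, B cell and leukocyte markers and 2 for pericyte markers, and 26 of 26 for epithelial tumor markers with a score of -2.19. Control tumor 4 ranked 26 of 26 for fibroblast markers, with a score of -3.86. Over all tumors the endothelial score had an r of 0.50 with 12 pericyte and mural markers, 0.53 with 7 adipocyte markers and -0.43 with 7 epithelial markers, and 0.55, 0.55 and -0.21 without the highest pair of tumors. With 6 B cell markers r was 0.62, and 0.38 without those tumors, and with 9 T cell markers it was 0.31, and -0.14 without them. T cell markers were higher in anti-PD1-treated than in untreated tumors for 9 of 9 genes, where 52.1% of all genes were lower. By limma 7 of the 9 had an unadjusted p under 0.05, as did 4.49% of all genes with a higher mean, and 0 an adjusted one. Their median log2 difference was 1.197. Of these 9 markers 3, Cd3d, Cd5 and Cd28, were above the background level in no tumor, and the T cell score ran from -0.52 to 3.83 with anti-PD1 + HMB, from -2.44 to 1.02 with HMB, from -0.36 to 1.38 with anti-PD1 and from -1.73 to 0.14 in control tumors. Skeletal muscle markers were higher in HMB-fed than in other tumors for 10 of 10 genes, where 53.3% of all genes were lower. By limma 9 of the 10 had an unadjusted p under 0.05, as did 5.03% of all genes in either direction, and 0 an adjusted one. The median log2 difference was 2.71. Of these markers Tnni2 lay above the background level in 23 of 26 tumors and Tnnc2 in none. Myl1 did so in 6 tumors, Acta1 in 5, Myh4 in 4, Tnnt3, Mylpf and Pvalb in 3 each, and Ckm and Actn3 in 1 each. The muscle score ran from -1.99 to 6.30 with anti-PD1 + HMB, from -1.65 to 7.06 with HMB, from -1.89 to 1.02 with anti-PD1 and from -1.90 to -1.37 in control tumors. Its medians were 0.82, -0.90, -1.52 and -1.54 in the same order, so the HMB group spread widely. The part of these cell types in the Emcn and Plvap values was not tested.

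Genes that act with the endothelial receptors were read from lists in anti-PD1-treated relative to untreated tumors, where none passed the adjusted p. Over all genes, 52.1% had a lower mean, and the median log2 difference was -0.01. An unadjusted p under 0.05 was found for 4.49% of all genes with a higher mean and 4.49% with a lower one. Of 7 genes for VEGF ligands and receptors, 5 had a lower mean and 2 an unadjusted p under 0.05, Vegfd with -0.93 ± 0.33 and Pgf with -0.57 ± 0.26 (SE). Vegfd, the ligand VEGF-D, averaged 10.2 with anti-PD1 + HMB, 10.6 with HMB, 9.67 with anti-PD1 and 11.1 in control tumors. Of 6 angiopoietin pathway genes 3 had a lower mean, with -0.43 ± 0.22 for Angpt1, which activates Tek, and 0.36 ± 0.31 for Angpt2, which can oppose it (SE). Of 14 genes of the pathway of endoglin 9 had a lower mean, 4 of them with an unadjusted p under 0.05, and 1 such gene had a higher mean. Id1, a target of bone morphogenetic protein signals, differed by -0.74 ± 0.22 and Bmpr2, a receptor of the same pathway, by -0.31 ± 0.095 (SE, adjusted p = 0.294 and 0.301 by limma).

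The Notch and ephrin genes of vessels had a lower mean in anti-PD1-treated tumors in 13 of 13 cases, with a median of -0.37. Of these 13 genes, 9 lay above the background level in none of the 26 tumors. The mean centred score of the list was lowest in anti-PD1 + HMB tumor 7, at -0.61, and the count was not repeated without that tumor. For this list and those that follow, the share of all genes with a lower mean was 52.1%. Of the 13, 3 had an unadjusted p under 0.05, as did 4.49% of all genes with a lower mean. Dll1, a Notch ligand, differed by -0.73 ± 0.23 and Nrarp, a Notch target that limits the pathway, by -0.37 ± 0.14 (SE, adjusted p = 0.309 and 0.397 by limma). Across tumors the Notch list had an r of -0.088 with the endothelial score. Of 20 endothelial transcription factors 11 had a lower mean and 3 an unadjusted p under 0.05, among them Ets2 with -0.56 ± 0.21 and Gata2 with -0.68 ± 0.29 (SE). Of 18 junction and adhesion genes 10 had a lower mean, with -0.27 ± 0.12 for Tjp1, a tight junction scaffold, and 0.71 ± 0.25 for Icam1, the ligand by which leukocytes arrest on endothelium (SE). Of the 30 other endothelial markers 18 had a lower mean. The smallest p-values there were those of Procr, the protein C receptor, with 0.98 ± 0.27, and Nos3, the endothelial nitric oxide synthase, with -0.51 ± 0.17 (SE, adjusted p = 0.273 and 0.334 by limma), both under the background level in the 26 tumors.

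Of 12 vascular basement membrane genes 10 had a lower mean in anti-PD1-treated tumors, against 52.1% of all genes. Col18a1, the collagen from which endostatin is cut, differed by -0.54 ± 0.21 and Nid2 by -0.35 ± 0.21 (SE). Of 10 lymphatic markers 7 had a higher mean, the smallest p-values being those of Stab2 with 0.35 ± 0.23 and Mmrn1 with 0.38 ± 0.25 (SE). Of 13 hypoxia genes linked to vessel growth 7 had a lower mean, with -0.17 ± 0.11 for Arnt and -0.50 ± 0.32 for Epas1, the hypoxia-inducible factor abundant in endothelium (SE). Of 9 angiogenesis inhibitors 5 had a lower mean, 1 of them with an unadjusted p under 0.05, and 4 a higher one, 2 of them with an unadjusted p under 0.05, with a median of -0.18. The 2 higher ones were the interferon-induced chemokines Cxcl9, with 1.27 ± 0.42, and Cxcl10, with 1.33 ± 0.61 (SE, adjusted p = 0.323 and 0.526 by limma). Cxcl9 averaged 16.1 with anti-PD1 + HMB and 14.2 with HMB, and 16.3 with anti-PD1 and 15.6 in control tumors, above the background level in all 26. Of the genes named from these lists, Pgf, Angpt2, Dll1, Nrarp, Gata2, Icam1, Nid2, Stab2 and Mmrn1 lay above the background level in none of the 26 tumors, Id1 in 1, Vegfd in 6, Epas1 in 7, Ets2 in 9 and Cxcl10 in 12.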

How the data were processed

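Total RNA of 26 Panc02 tumors was labeled with the WT PLUS kit and hybridized to Clariom S arrays. For each probe set and tumor, the authors deposited a processed expression value, which was read as log2. Neither the base of the logarithm nor the normalization is given in the sources used, and the values were kept as deposited, from 1.08 to 19.3 over 28846 probe sets. Of these, 19572 had 1 gene symbol, 0 had several and 9274 had none, of which 5222 were negative controls. Where a gene had several probe sets (55 genes) the brightest on average represented it, and dim genes were kept.

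Groups came from the sample titles. Differences were estimated with limma 3.58.1 in R 4.3.3, fitting a mean for each group in a single model of the 26 tumors, with 1 spread per gene, and p-values were adjusted by Benjamini-Hochberg over 19505 genes at 0.05. The 5 differences between single groups, the averaged effect of each treatment and their interaction were tested two-sided, with a moderated F test for any difference. The labels do not say whether each tumor came from its own mouse. By the study's methods every mouse was injected in the right flank, so that a mouse would carry 1 tumor. The p-values measure the spread between these tumors. Named genes were the 10 endothelial genes, the 2 genes with the smallest p of each list in anti-PD1-treated against untreated tumors, and the 10 genes most correlated with the endothelial score. The endothelial genes and all lists were chosen with earlier results of these data known, and a list is described by counts beside all genes.

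The steps were tested on simulated data with 200 changed genes, drawn from all 19505, and independent normal noise at the spread of each gene. Of the changed genes, 67 were shifted by 1, 67 by 2 and 66 by 3 on the log2 scale, up or down. Genes shifted by 1 on the log2 scale were called in 91% of cases for anti-PD1-treated against untreated and for HMB-fed against other tumors. They were called in 67.2% to 74.6% for the 5 comparisons of single groups and in 43.3% for the interaction. The endothelial genes had a median SD within groups of 0.64, against 0.38 over all genes, so these shares cannot be read as theirs. The adjusted threshold also eases when many genes change strongly, as in the simulation, whereas no gene passed in the tumors with the settings above. The alternatives were quantile normalization, centring of arrays on their median, leaving out dim genes, eBayes with trend and robust, array weights, averaging probe sets, fitting the compared groups alone, a replicate block, the methods' t-test, and fits without each tumor.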

Additional observations from a re-analysis of the deposited data

Results flagged for a closer look

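Of 40 sets of values, 10 endothelial genes in 4 groups, 6 had a highest tumor farther from its neighbor than Dixon's 95% limit allows. For independent sets of normal values chance gives about 1 in 20. The 40 sets share tumors and the genes vary together, so they are not independent. The share over all genes was not computed, so the count cannot be read as particular to the endothelial genes. Anti-PD1 + HMB tumor 7 stood out for Pecam1 at 14.06 (next tumor 11.68), for Kdr at 11.29 (next 9.93) and for Vwf at 7.91 (next 6.98). Control tumor 4 stood out for Pecam1 at 12.51 (next 11.18) and for Flt1 at 10.93 (next 9.53). HMB tumor 4 stood out for Eng at 12.40 (next 11.39). The 6 values were all at the high end.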

How the results depend on the processing

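No endothelial gene passed an adjusted p of 0.05 in any of 2844 fits of a gene, a comparison and a setting. These were limma fits, apart from the methods' t-test in the comparisons of single groups. The lowest adjusted p was 0.235 by limma, for Emcn in anti-PD1-treated against untreated tumors, whose range over its alternatives was 0.235 to 0.53. The 0 genes called among all genes stood against 815 to 1751 with an unadjusted p under 0.05, and the methods' test gave 0 after adjustment and 688 to 1408 before it. For HMB-fed against other tumors, quantile normalization, centring arrays on their median and array weights each called 1 gene, Pdp2. Fits without 1 tumor called 0 to 4 genes for anti-PD1 + HMB against HMB (Gm8909, Ly75, Slc4a3 and Tnfsf13b without anti-PD1 + HMB tumor 1) and 0 to 1 for anti-PD1-treated against untreated (Slc40a1 without anti-PD1 + HMB tumor 3), HMB-fed against other tumors (Pdp2 without anti-PD1 + HMB tumor 5 or control tumor 4), anti-PD1 against control (Hdhd3 without anti-PD1 + HMB tumor 7), the interaction (Cblc without HMB tumor 3) and HMB against control (Olfr1341 without anti-PD1 tumor 6). These genes are named for their calls, after their values were seen.

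Deviations from the group means of same-numbered tumors had r from -0.24 to 0.32 over 37 pairs, with a median of -0.014 and 12 over 0.1. Tumors of different numbers were not compared in this way, so these values cannot decide whether the number pairs tumors. With the replicate block 0 genes were called in every comparison. Quantile normalization turned the sign of 3 values, giving for anti-PD1 + HMB against control Vwf -0.035, for anti-PD1 + HMB against HMB Tie1 0.010, for interaction of HMB and anti-PD1 Eng -0.019. Centring arrays on their median turned the sign of 3 values, giving for anti-PD1 + HMB against control Vwf -0.060, for anti-PD1-treated against untreated Kdr -0.026, for interaction of HMB and anti-PD1 Tek 0.0031. Array weights turned the sign of 16 values, giving for anti-PD1 + HMB against control Pecam1 -0.064, Vwf -0.0015, for anti-PD1 + HMB against anti-PD1 Kdr -0.18, Tie1 -0.12, Emcn -0.11, for anti-PD1 + HMB against HMB Cdh5 -0.18, Kdr -0.10, for HMB-fed against not HMB-fed Pecam1 -0.023, Cdh5 -0.042, Flt1 -0.032, for anti-PD1-treated against untreated Pecam1 -0.041, Kdr -0.080, for interaction of HMB and anti-PD1 Kdr -0.049, Tie1 -0.058, Eng -0.16, Emcn -0.044. The replicate block turned the sign of 5 values, giving for anti-PD1 + HMB against control Pecam1 -0.022, for anti-PD1 + HMB against anti-PD1 Kdr -0.068, Tie1 -0.0048, for HMB-fed against not HMB-fed Pecam1 -0.063, Cdh5 -0.012. The causes were not tested. Without 1 tumor, 141 of 2080 values changed sign, 20 of them without anti-PD1 + HMB tumor 7 and 16 without control tumor 4, and the lowest and highest values of the 40 results concerned, as log2 differences, were as follows. For HMB against control the range was Pecam1 -0.27 to 0.13, Tek -0.14 to 0.12, Tie1 -0.24 to 0.083, Vwf -0.25 to 0.19, Emcn -0.17 to 0.061. For anti-PD1 against control the range was Pecam1 -0.37 to 0.026, Kdr -0.25 to 0.092, Tek -0.52 to 0.051, Tie1 -0.32 to 0.000287. For anti-PD1 + HMB against control the range was Pecam1 -0.26 to 0.44, Kdr -0.31 to 0.071, Flt1 -0.44 to 0.077, Tie1 -0.33 to 0.051, Vwf -0.17 to 0.27. For anti-PD1 + HMB against anti-PD1 the range was Pecam1 -0.028 to 0.56, Kdr -0.21 to 0.18, Tek -0.40 to 0.17, Tie1 -0.11 to 0.21, Emcn -0.14 to 0.20. For anti-PD1 + HMB against HMB the range was Pecam1 -0.13 to 0.46, Cdh5 -0.21 to 0.27, Kdr -0.15 to 0.22, Flt1 -0.023 to 0.40, Tie1 -0.20 to 0.12, Vwf -0.090 to 0.21, Eng -0.064 to 0.35. For HMB-fed against not HMB-fed the range was Pecam1 -0.077 to 0.27, Cdh5 -0.062 to 0.20, Kdr -0.19 to 0.0081, Flt1 -0.060 to 0.20, Tek -0.20 to 0.081, Tie1 -0.12 to 0.067, Emcn -0.11 to 0.064. For anti-PD1-treated against untreated the range was Pecam1 -0.18 to 0.17, Kdr -0.12 to 0.098. For interaction of HMB and anti-PD1 the range was Kdr -0.054 to 0.35, Tek -0.39 to 0.17, Tie1 -0.032 to 0.34, Eng -0.21 to 0.20, Emcn -0.061 to 0.28. Background limits these values, since Flt1, Tek, Tie1, Vwf and Emcn exceeded the negative-control level in none of the 26 tumors and Kdr and Plvap in 1.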
